A study of Ovis aries with 9 samples.

Results

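A set of 10 genes of the blood vessel lining and of the VEGF and angiopoietin signalling pathways was followed in the sheep ovary, namely the ligands VEGFA, ANGPT1 and ANGPT2, the receptors FLT1, KDR, FLT4 and TEK, and the endothelial markers PECAM1, CDH5 and VWF. They were chosen by name, with no measured value in the rule, and make up 10 of the 27174 genes in the deposited count table. Of these, 8 were found by symbol, KDR was found by its gene number (LOC443087) and TEK by its older symbol (TIE2). All 10 passed the filter on low counts, as did 16871 genes in all.

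RNA was sequenced from whole ovaries of 9 adult ewes aged 2.5 to 3 years, with 3 ewes in each of 3 groups. The Han BB ewes (libraries W1, W2 and W4) were Small Tail Han sheep homozygous for the FecB mutation of the bone morphogenetic protein receptor BMPR1B, and the Han ++ ewes (W6, W7 and W8) were of the same breed without it. The Dorset ewes (D4, D5 and D6), a breed of low fecundity, were labelled wild type. Estrus was synchronized in all 9 ewes with vaginal sponges of fluorogesterone acetate followed by an injection of pregnant mare serum gonadotropin, and the ovaries, with their ovulation points, were collected 24 to 36 h after the next spontaneous estrus. Han BB differed from Han ++ in FecB genotype, whereas Dorset differed from both in breed, and a whole ovary holds every cell type of the organ.

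Endothelial cells line all blood vessels, and the ovary is among the few adult organs in which vessels grow and regress with each cycle. VEGFA, made largely by hormone-producing follicular and luteal cells, acts on endothelial cells through KDR (VEGF receptor 2), while FLT1 (VEGF receptor 1) binds it tightly and acts in part as a decoy. FLT4 (VEGF receptor 3) serves lymphatic endothelium and sprouting vessels. The angiopoietins share the receptor TEK, on which ANGPT1 is an agonist that stabilizes vessels and ANGPT2 is mostly an antagonist that loosens them.

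The libraries held 10803913 to 20992535 counted reads. The libraries W4 of Han BB and D6 of Dorset resembled each other more than their own groups. Their rank correlation with each other over all tested genes was 0.978, above the highest value each reached within its own group (0.931 for W4 and 0.949 for D6), and both lay at one end of the first principal component (-107 and -103, the next being W7 at -32.4). Both were outside the range of the other 7 libraries, on the same side, for 35.8% of all tested genes. D4 lay at the other end of that component (118, the next being W8 at 74.9), and W1, D4 and D5 also had a higher correlation with some library of another group than with any of their own. Results that rest on W4 and D6 are also given without them. The granulosa receptor FSHR had at least 81 reads in every library, and the steroidogenic gene STAR at least 438. Some other ovarian markers varied widely, with 1 to 242 reads of HSD17B1, 42 to 1531 of CYP17A1 and 42 to 12517 of OXT. FSHR and STAR reads therefore do not show that the libraries were alike in cell content. Levels below are CPM, read counts scaled to a common library size after TMM normalization. They compare one gene between libraries and not one gene with another, since gene lengths were not used.

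None of the 10 genes passed the call rule (adjusted p under 0.05 and a change of more than 1.5-fold) in any of the 3 comparisons. The share of all tested genes called was 0% for Han BB against Dorset, 0.00593% (1 gene) for Han ++ against Dorset and 0% for Han BB against Han ++ in edgeR. DESeq2 called 38, 65 and 2 genes in these comparisons. At an unadjusted p under 0.05, edgeR's quasi-likelihood test named 1 of the 10 genes for Han BB against Dorset (ANGPT2), 0 for Han ++ against Dorset and 1 for Han BB against Han ++ (ANGPT1). The corresponding shares of all genes were 4.99%, 5.27% and 1.97%. DESeq2 and limma also called 0 of the 10 genes in each comparison. DESeq2 had 1 unadjusted p under 0.05 in each comparison (ANGPT2, KDR and ANGPT1 in turn), and limma had 2, 1 and 2. The lowest adjusted p of any of the genes in any fit was 0.322.

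**Figure D1:**
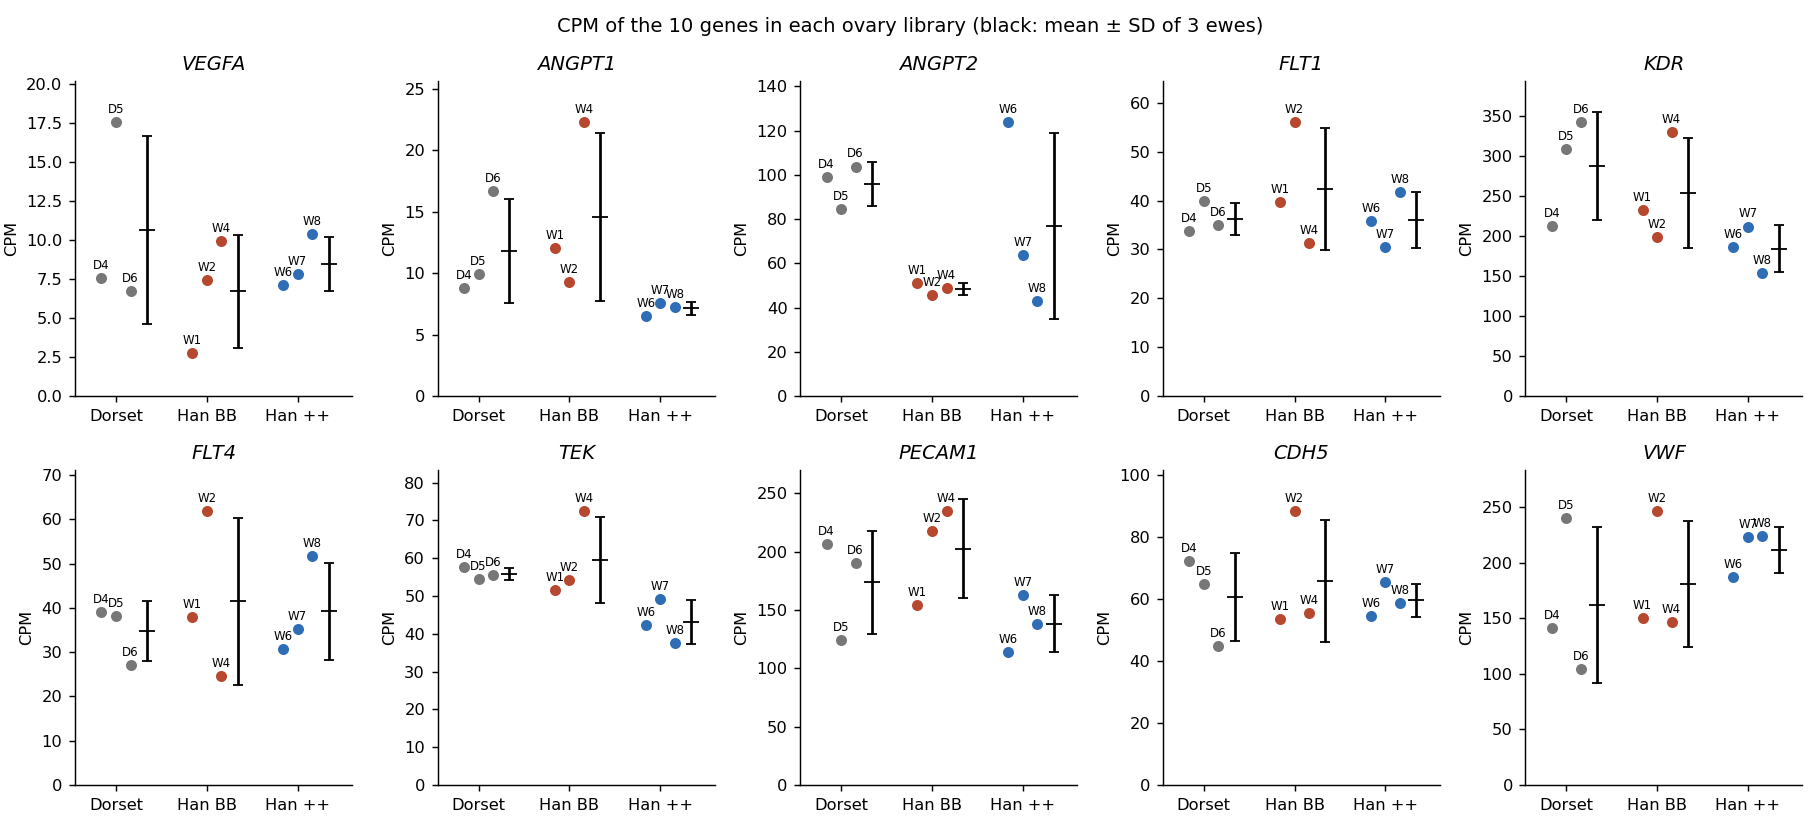
Level of each of the 10 genes in the 9 libraries, in CPM, by group (points, single libraries with their names; black, group mean ± SD of 3 ewes). ANGPT2 in the 3 Dorset libraries (84.7 to 104) sits above the 3 Han BB libraries (45.7 to 51.0), and the Han ++ libraries span both.

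ANGPT2, the antagonist ligand of TEK, had the lowest p of the 10 genes in edgeR, with about the same low level in all Han BB ewes. Its level was 51.0, 45.7 and 48.9 CPM in the Han BB libraries W1, W2 and W4, against 99.0, 84.7 and 104 CPM in the Dorset libraries D4, D5 and D6. Each Han BB library was thus below each Dorset library, and both groups were tight (48.5 ± 2.70 and 95.8 ± 9.92 CPM, mean ± SD, n = 3 each). Han ++ was spread over the ranges of both, with 124 CPM in W6, 63.6 in W7 and 43.1 in W8 (76.8 ± 41.9). The level in Han BB was 0.507 of that in Dorset, a log2 fold change of -0.98 (SE 0.35, 95% confidence interval -1.76 to -0.20), with an unadjusted p of 0.0185 and an adjusted p of 0.975 in edgeR. Han ++ differed from Dorset by -0.32 (SE 0.35, adjusted p = 1.00) and Han BB from Han ++ by -0.66 (SE 0.35, adjusted p = 0.999). The depth was ample for this gene, with 468 to 2595 reads per library.

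The value for Han BB against Dorset was much the same whichever single library was left out (-1.05 to -0.91, unadjusted p from 0.00586 to 0.0542), and it was -0.93 without W4 and D6 (edgeR adjusted p = 0.680). That of Han ++ against Dorset rested on single ewes, at -0.86 without W6 and -0.01 without W8, and Han BB against Han ++ went from -0.12 without W6 to -0.96 without W8. For all 6 Han libraries against Dorset the log2 fold change was -0.65 (SE 0.30, adjusted p = 0.815 in edgeR), the lowest unadjusted p (0.0521) of the 10 genes in that comparison, where 0% of all tested genes were called and 6.12% had an unadjusted p under 0.05.

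ANGPT1, the agonist ligand of TEK that is made by perivascular cells, was lowest in Han ++. The 3 Han ++ libraries held 6.54, 7.60 and 7.28 CPM (7.14 ± 0.545, n = 3), below every library of the other groups. Dorset had 8.76, 9.96 and 16.6 CPM in D4, D5 and D6 (11.8 ± 4.25), and Han BB had 12.1, 9.32 and 22.3 CPM in W1, W2 and W4 (14.5 ± 6.83). The highest library in each of these groups was W4 or D6. Han BB was 2.04 times Han ++, a log2 fold change of 1.03 (SE 0.39, 95% confidence interval 0.17 to 1.88, unadjusted p = 0.0231, adjusted p = 0.999 in edgeR). That difference was 0.58 without W4 (unadjusted p = 0.145 in edgeR), 1.27 without W2, and 0.58 without both W4 and D6 (unadjusted p = 0.0754 in edgeR). Han ++ differed from Dorset by -0.73 (SE 0.39, adjusted p = 1.00 in edgeR; -0.40 without D6) and Han BB was above Dorset by 0.30 (SE 0.38, adjusted p = 0.997).

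VEGFA, the main growth factor of blood vessels, was the most variable of the 10 genes, with a highest library 6.28 times the lowest. The Dorset libraries D4, D5 and D6 held 7.59, 17.6 and 6.76 CPM, the Han BB libraries W1, W2 and W4 held 2.80, 7.43 and 9.97 CPM, and the Han ++ libraries W6, W7 and W8 held 7.16, 7.83 and 10.4 CPM. The groups overlapped, and the extremes were 1 Dorset ewe (D5) and 1 Han BB ewe (W1). The means were 10.6 ± 6.02 CPM in Dorset, 6.73 ± 3.63 in Han BB and 8.46 ± 1.72 in Han ++ (n = 3 each). Han BB against Dorset gave -0.67 (SE 0.50, 95% confidence interval -1.78 to 0.44, adjusted p = 0.996 in edgeR), so the interval of the fold ran from 0.291 to 1.36. It rested on single ewes, at -0.078 without D5 (unadjusted p = 0.879 in edgeR), -0.30 without W1 and -1.10 without W4. It was -1.34 without W4 and D6 (adjusted p = 0.644) and -1.61 in limma with library weights (unadjusted p = 0.00602, adjusted p = 0.322). The gene had only 59 to 390 reads per library. D5 also had the highest summed level of 8 granulosa cell markers (783 CPM, the other libraries reaching at most 640). GJA1 alone supplied 472 CPM of it. D5 was the highest library for GJA1, INHBA, INHBB, HSD17B1 and NR5A2, but not for FSHR, INHA or AMH. The part of these cells in the VEGFA value was not tested.

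Because ANGPT2 and ANGPT1 oppose each other on TEK, their ratio within each library was also compared. The ratio of ANGPT2 to ANGPT1 counts was 4.22, 4.89 and 2.19 in the Han BB libraries W1, W2 and W4. It was 18.9, 8.34 and 5.90 in the Han ++ libraries W6, W7 and W8, and 11.3, 8.48 and 6.23 in the Dorset libraries D4, D5 and D6. Every Han BB library lay below every library of the other groups. The share of all gene pairs whose ratio separates in this way was not computed, so this is given as a description. For single genes in CPM, the groups did not overlap for 8.79% (Han BB against Dorset) and 9.38% (Han BB against Han ++). ANGPT2 and ANGPT1 were also the genes with an unadjusted p under 0.05 in edgeR, so their ratio is not separate evidence. The ratio carries the lengths of both transcripts, so its level has no meaning as a ratio of molecules, but it can be compared between libraries. The mean log2 ratio was 1.83 ± 0.616 in Han BB, against 3.29 ± 0.860 in Han ++ and 3.07 ± 0.428 in the Dorset ewes (SD, n = 3 each). Han BB was lower than Dorset by a log2 difference of -1.24 and lower than Han ++ by -1.45, each with an exact two-sided permutation p of 0.1 (0.15 adjusted over the 3 comparisons). That is the smallest p that 3 against 3 libraries can give, so this design could not reach 0.05. Han ++ and Dorset differed by 0.21 (exact permutation p = 0.9). Without W4 and D6 the differences of Han BB were -1.10 against both other groups.

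**Figure D2:**
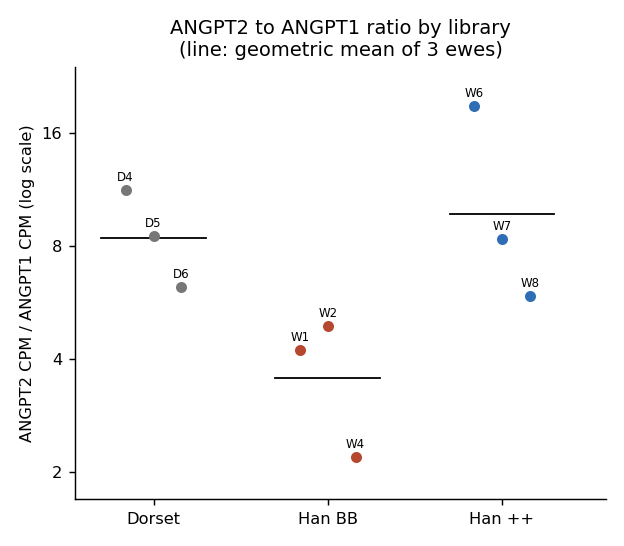
Ratio of ANGPT2 to ANGPT1 in each library on a log axis, by group (points, single libraries; lines, geometric means of 3 ewes). The Han BB libraries (2.19 to 4.89) lie below all Han ++ and Dorset libraries (5.90 to 18.9). The share of gene pairs that separate in this way was not computed.

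Of the receptors, KDR, which carries most of the growth signal of VEGFA, and TEK, the angiopoietin receptor, both had their lowest mean in Han ++. KDR was at 187, 212 and 154 CPM in W6, W7 and W8 (184 ± 29.0), at 232, 199 and 330 CPM in W1, W2 and W4 (254 ± 68.3), and at 212, 309 and 342 CPM in D4, D5 and D6 (288 ± 67.6). The Han ++ and Dorset libraries did not overlap, though the closest pair, W7 and D4, were equal to 3 digits. Han ++ differed from Dorset by a log2 fold change of -0.64 (SE 0.31, 95% confidence interval -1.32 to 0.04, unadjusted p = 0.0618, adjusted p = 0.981 in edgeR), and the value was between -0.83 and -0.50 with any single library left out. The other KDR comparisons gave -0.18 for Han BB against Dorset and 0.46 for Han BB against Han ++ (SE 0.31 each). As for ANGPT1, the libraries W4 and D6 held the highest KDR levels of all, and Han BB against Han ++ was 0.22 without them.

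TEK was even in Dorset, at 57.6, 54.4 and 55.6 CPM in D4, D5 and D6 (55.9 ± 1.62). It was at 42.3, 49.2 and 37.6 CPM in W6, W7 and W8 (43.0 ± 5.83) and at 51.6, 54.1 and 72.5 CPM in W1, W2 and W4 (59.4 ± 11.4). All 3 Han ++ libraries were below all 6 others. The log2 fold change was -0.38 for Han ++ against Dorset (SE 0.24, 95% confidence interval -0.91 to 0.16, adjusted p = 1.00 in edgeR) and 0.47 for Han BB against Han ++ (SE 0.24, interval -0.07 to 1.00, adjusted p = 0.999). Han BB and Dorset differed by 0.09 (interval -0.45 to 0.62). Without W4 and D6 the value of Han BB against Han ++ was 0.29, and that of Han ++ against Dorset was again -0.38.

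FLT1, the decoy-like VEGF receptor, and FLT4, the receptor of the lymphatic growth factors, showed no separation of the groups. FLT1 ranged from 30.4 CPM in W7 (Han ++) to 56.0 in W2 (Han BB), with means of 36.2 ± 3.25 in Dorset, 42.4 ± 12.5 in Han BB and 36.03 ± 5.69 in Han ++. FLT4 ranged from 24.7 CPM in W4 to 61.9 in W2, both Han BB, with means of 34.8 ± 6.74 in Dorset, 41.5 ± 18.9 in Han BB and 39.3 ± 11.0 in Han ++. For FLT4 the Han BB ewes covered the range of all 9 libraries, and for FLT1 they ran from 31.4 to 56.0 CPM. The 6 log2 fold changes of these receptors lay between -0.01 and 0.26, with SEs of 0.28 for FLT1 and 0.36 for FLT4, and intervals that all held 0.

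**Figure D3:**
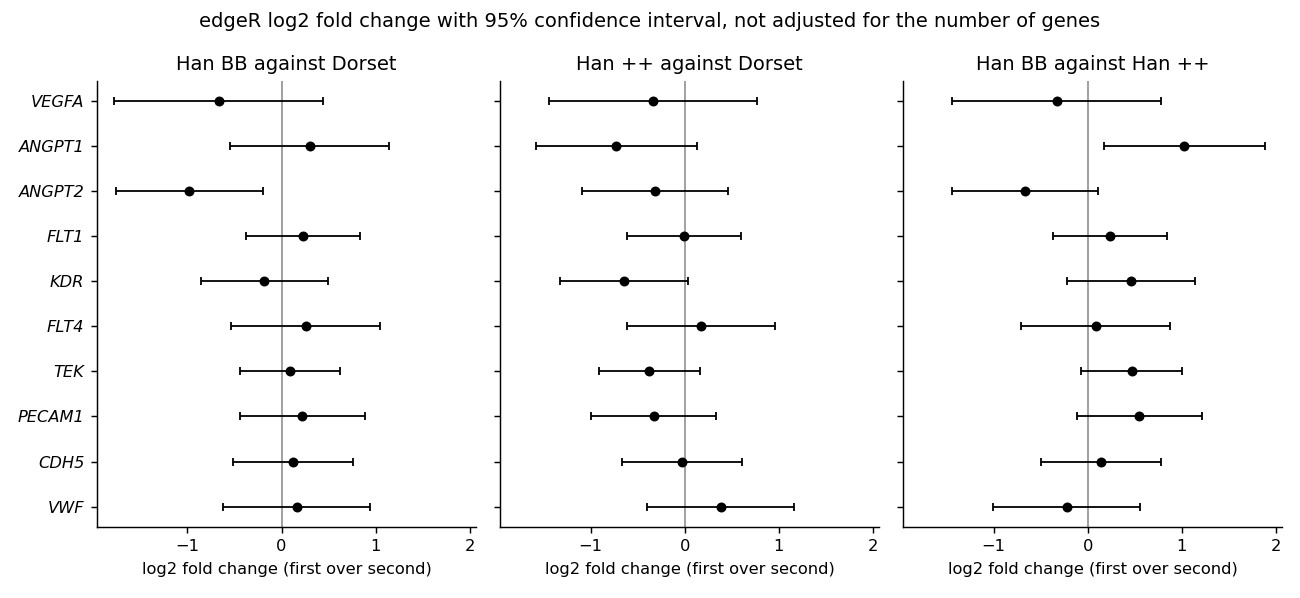
Log2 fold changes of the 10 genes in the 3 comparisons, from edgeR (points, estimates; lines, 95% confidence intervals; grey line, 0). Of the 30 intervals 2 exclude 0, ANGPT2 for Han BB against Dorset (-1.76 to -0.20) and ANGPT1 for Han BB against Han ++ (0.17 to 1.88), before any adjustment.

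The endothelial markers are genes of the vessel lining, but the 3 did not vary together across the libraries (correlations below). They are therefore not read as a single measure of how much vessel lining each ovary sample held. Fewer endothelial cells and less RNA per cell also cannot be told apart in whole tissue. PECAM1, an adhesion molecule at endothelial junctions, was at 154, 218 and 235 CPM in W1, W2 and W4, at 114, 163 and 138 CPM in W6, W7 and W8, and at 207, 124 and 190 CPM in D4, D5 and D6. CDH5, the cadherin of the same junctions, was at 53.5, 88.3 and 55.5 CPM in Han BB, at 54.6, 65.3 and 58.6 CPM in Han ++, and at 72.2, 64.8 and 44.7 CPM in Dorset, in the same order of libraries. VWF, the clotting factor stored by endothelial cells and platelets, was at 150, 247 and 146 CPM in Han BB, at 187, 223 and 224 CPM in Han ++, and at 141, 240 and 104 CPM in Dorset. The groups overlapped for all 3 markers, and the highest CDH5 and VWF levels came from 1 ewe, W2.

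The group means of PECAM1 were 174 ± 43.8 CPM in Dorset, 202 ± 42.5 in Han BB and 138 ± 24.4 in Han ++. Those of CDH5 were 60.6 ± 14.2, 65.8 ± 19.6 and 59.5 ± 5.40 CPM, and those of VWF were 162 ± 70.5, 181 ± 56.8 and 211 ± 21.1 CPM, in the same order (SD, n = 3 each). The 9 log2 fold changes of the markers ran from -0.33 (PECAM1, Han ++ against Dorset) to 0.55 (PECAM1, Han BB against Han ++), and the lowest adjusted p was 0.997 in edgeR. For CDH5 the 95% confidence intervals were -0.52 to 0.76 for Han BB against Dorset and -0.66 to 0.61 for Han ++ against Dorset, which correspond to folds of 0.698 to 1.69 and of 0.631 to 1.53. Platelets also carry VWF and PECAM1. The summed level of 8 platelet genes was 4.75 to 14.4 CPM, and 4 of the 8 (PPBP, GP9, GP6 and TREML1) had too few reads to test, which in this table is not read as low expression.

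With each gene expressed relative to the mean log2 level of PECAM1, CDH5 and VWF, the groups did not overlap for ANGPT2 in Han BB against Dorset (-1.16), for ANGPT1 in Han ++ against Dorset (-0.72) and for TEK in Han ++ against Dorset (-0.44), all lower in the first-named group. Without W4 and D6 these values were -1.01, -0.31 and -0.31. The lowest exact permutation p of the 21 such comparisons was 0.1 (0.7 adjusted over the 21), which is the smallest this design allows. The share of all tested genes without overlap was not computed on this scale. In plain CPM it was 8.79% for Han BB against Dorset and 11.1% for Han ++ against Dorset. The non-overlaps are therefore given as a description. KDR in Han ++ and Dorset overlapped on this scale. The markers themselves did not vary together (r from -0.399 for PECAM1 with VWF to 0.655 for CDH5 with VWF). Their mean is therefore not a settled measure of endothelial content.

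Counting non-overlap over all 10 genes, 1 gene (ANGPT2) separated Han BB from Dorset, with the lower level in Han BB, against 8.79% of all tested genes (4.52% lower in Han BB). For Han ++ against Dorset it was 3 genes (ANGPT1, KDR and TEK), all lower in Han ++, against 11.1% of all genes (5.59% lower in Han ++). Between Han BB and Han ++ it was 2 genes (ANGPT1 and TEK), both higher in Han BB, against 9.38% (4.78% higher in Han BB). The comparisons share the Han ++ libraries, so the entries of ANGPT1 and TEK in both are not separate evidence. By mean level, Han ++ was the lowest group for 6 of the 10 genes (ANGPT1, FLT1, KDR, TEK, PECAM1 and CDH5) and Han BB was the highest for 6 (ANGPT1, FLT1, FLT4, TEK, PECAM1 and CDH5). No step between neighbouring groups in these orders passed the test. Without W4 and D6, 3 genes separated Han BB from Dorset (VEGFA, ANGPT2 and TEK, all lower), against 33.8% of all genes with so few libraries.

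The libraries W4 and D6 were both above the other 7 for ANGPT1 and KDR and both below them for FLT4, which is 3 of the 10 genes against 35.8% of all tested genes. The share was thus close to that of all genes. Of the 8 other VEGF and angiopoietin genes tested, 25.0% lay outside the other 7 libraries in both. Of the 23 other endothelial genes tested it was 21.7%, so both lists were below the 35.8% of all genes. Single genes of these lists differed in this pair by more than the members did. VEGFB, a ligand of FLT1, was at 16.7 CPM in W4 and 16.8 in D6 against 34.0 to 49.4 in the other libraries. ENG, an endothelial coreceptor for TGF-beta ligands, was at 24.8 and 26.1 CPM against 76.7 to 120. TIE1, the partner receptor of TEK, was also below the other 7 in both. Of 11 tested pericyte genes, 6 (54.5%) were below the other 7 libraries in both, including the pericyte receptor PDGFRB. The share of all tested genes below in both was 17.2%. The summed level of the pericyte list was 252 CPM in W4 and 334 in D6 against 464 to 710. Their part in the ANGPT1, KDR and FLT4 values was not tested.

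**Figure D4:**
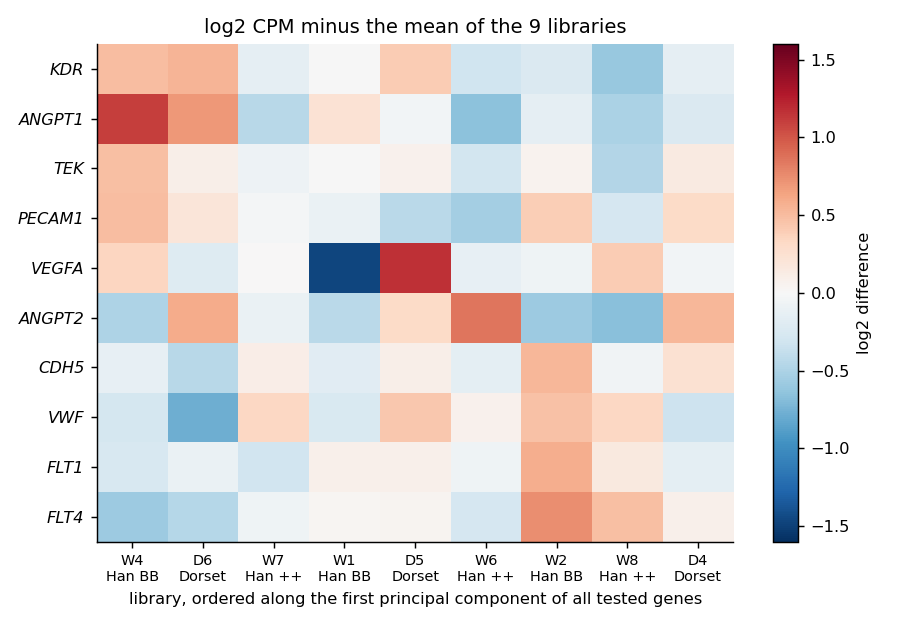
Deviation of each gene from its own mean over the 9 libraries, in log2 CPM, with the 10 genes from top to bottom and the libraries from left to right in their order along the first principal component of all tested genes (red, above the mean; blue, below it). W4 and D6 are high for ANGPT1 and KDR and low for FLT4, and Han BB is low for ANGPT2 in all 3 libraries.

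Across the 9 ewes the 10 genes did not vary as one block. Of their 45 pairs, 21 had a positive and 24 a negative Pearson correlation of log2 CPM, with a median of -0.03. The adjusted p was under 0.05 for 0 pairs, and the unadjusted p for 8 pairs (exact permutation tests over the 9 libraries, two-sided, adjusted over 45). The highest was ANGPT1 with KDR (r = 0.836, rho = 0.9, exact permutation p = 0.00436, adjusted p = 0.114), and r was 0.635 without W4 and D6, the 2 libraries highest in both genes. TEK went with both of them, at r = 0.808 with ANGPT1 and 0.782 with KDR, and at 0.666 and 0.719 without W4 and D6. FLT1 with FLT4 did not rest on that pair, at r = 0.819 over 9 libraries (rho = 0.7, exact permutation p = 0.00571, adjusted p = 0.114) and 0.83 over 7 (exact permutation p = 0.0216, adjusted p = 0.677).

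The 3 endothelial markers did not vary together over all 9 libraries. PECAM1 had an r of 0.252 with CDH5 and -0.399 with VWF, and CDH5 had an r of 0.655 with VWF. Without W4 and D6, PECAM1 with CDH5 reached 0.788 (exact permutation p = 0.0315, not past the adjustment). With those libraries left out 30 of the 45 pairs were positive, with a median r of 0.164 and an adjusted p under 0.05 for 0 pairs. The sign of r changed for 13 pairs. The mean of the scaled markers was highest in W2 (1.34) and lowest in D6 (-0.949). Of the other tested genes, those most like it over the 9 libraries were CBLN2 (r = 0.922), KCNF1 (0.871), LOC101123604.1 (0.861), YWHAZ (0.835) and ZNF341 (0.826), given as a description of the closest of 16871 genes, all sharing the same libraries and depth.

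The rest of the VEGF and angiopoietin family did not pass the test either, with 8 genes tested, 0 called and 0 with an unadjusted p under 0.05 in each comparison in edgeR. Their median log2 fold change was 0.09 for Han BB against Dorset, 0.09 for Han ++ against Dorset and -0.12 for Han BB against Han ++, where the medians of all tested genes were -0.01, -0.06 and 0.04. The coreceptor NRP1 was even across groups (338 ± 10.6 CPM in Dorset, 318 ± 65.0 in Han BB and 359 ± 75.8 in Han ++). NRP2, which pairs with FLT4, was at 332 ± 72.7, 401 ± 103 and 434 ± 84.3 CPM. ANGPT4, a further angiopoietin, was at 32.7 ± 14.7 CPM in Dorset and 17.7 ± 9.61 in Han BB (log2 fold change -0.89, unadjusted p = 0.0755 in edgeR), the lowest p of the family there.

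Among 23 other tested endothelial genes, 0 were called in any comparison by edgeR. For Han BB against Dorset 7 were higher and 16 lower (median -0.05, with 50.6% of all tested genes lower), 2 of them at an unadjusted p under 0.05 (KLF2 and CD34, both lower). For Han ++ against Dorset 7 were again higher and 16 lower (median -0.15, with 55.9% of all genes lower), with 1 higher (GJA5) and 4 lower (EGFL7, CLEC14A, KLF2 and CD34) at that level. For Han BB against Han ++ 16 were higher and 7 lower (median 0.13, with 53.4% of all genes higher), with 1 (CLEC14A) at that level. CD34, a surface sialomucin of small-vessel endothelium, was at 126, 128 and 122 CPM in D4, D5 and D6, and at 71.1 to 102 CPM in all 6 Han libraries. Its log2 fold change for Han against Dorset was -0.62 (SE 0.21, unadjusted p = 0.0123, adjusted p = 0.613 in edgeR). KLF2, a transcription factor that responds to blood flow, was at 12.8, 10.7 and 11.2 CPM in D4, D5 and D6, and its Han means were 6.16 ± 1.93 CPM in Han BB and 4.74 ± 1.51 in Han ++ (Han against Dorset -1.09, adjusted p = 0.509). These were the 2 of 23 genes with all 6 Han libraries below all 3 Dorset libraries (8.7%), where 3.76% of all tested genes had the 6 Han libraries on one side.

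CLEC14A, an endothelial surface lectin, followed the order of KDR more widely. It was at 35.8, 25.0 and 21.4 CPM in W6, W7 and W8, below 51.9, 49.9 and 58.9 CPM in W1, W2 and W4 and below 77.9, 41.5 and 74.9 CPM in D4, D5 and D6. Han ++ against Dorset was -1.24 (SE 0.31, unadjusted p = 0.00226, adjusted p = 0.563 in edgeR), and Han BB against Han ++ was 0.97 (SE 0.31, adjusted p = 0.999). GJA5, a gap junction protein of arterial endothelium, went the other way, at 16.4 ± 4.71 CPM in Dorset and 27.4 ± 1.66 in Han ++ (0.74, adjusted p = 0.883 in edgeR).

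**Figure D5:**
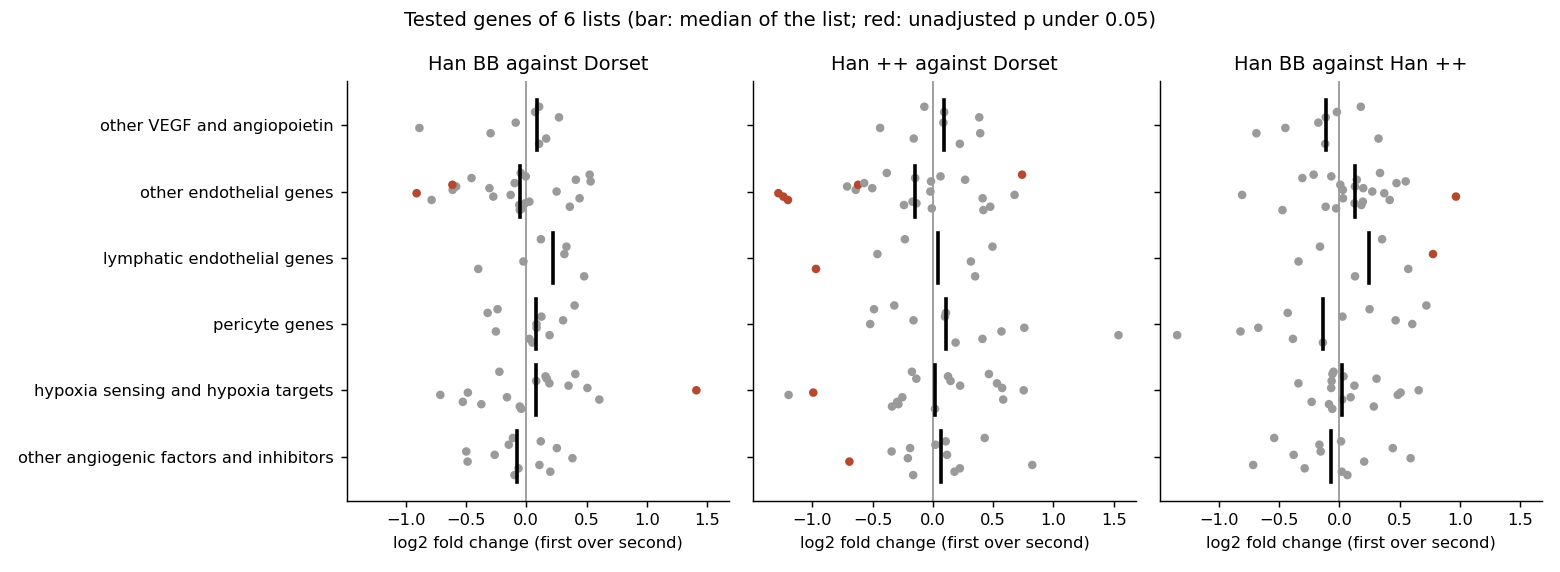
Log2 fold changes of the tested genes of 6 related lists in the 3 comparisons, from edgeR (points, single genes, red where the unadjusted p was under 0.05; bars, list medians). The list medians lie between -0.15 and 0.24, and no gene passed the call rule.

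The lymphatic, pericyte, hypoxia and other angiogenic lists also had 0 genes called in each comparison by edgeR. Among 6 lymphatic genes the medians were 0.22, 0.04 and 0.24 for Han BB against Dorset, Han ++ against Dorset and Han BB against Han ++. The hyaluronan receptor LYVE1 was lower in Han ++ than in Dorset (9.94 ± 4.62 against 19.5 ± 3.23 CPM, unadjusted p = 0.0306 in edgeR), and the multimerin MMRN1 was higher in Han BB than in Han ++ (107 ± 22.6 against 62.3 ± 20.2 CPM, unadjusted p = 0.0330). In Han ++ against Dorset 3 of the 6 genes were higher and 3 lower. PROX1 was among the higher, at 44.2 ± 5.61 CPM in Dorset, 61.6 ± 14.8 in Han BB and 56.3 ± 2.74 in Han ++. All 6 Han libraries were above all 3 Dorset libraries for PROX1, though W2 and D6 were equal to 3 digits. Of all tested genes, 3.76% had the 6 Han libraries on one side. PDPN, with the highest mean CPM of the list, was at 155 ± 45.7 CPM in Dorset, 153 ± 39.0 in Han BB and 193 ± 21.0 in Han ++. The 11 pericyte genes had medians of 0.08, 0.11 and -0.14 and 0 genes with an unadjusted p under 0.05 in edgeR. PDGFRB and ABCC9 had the highest mean CPM of the pericyte list. PDGFRB was at 230 ± 79.6 CPM in Dorset, 234 ± 126 in Han BB and 306 ± 92.9 in Han ++. ABCC9 was at 68.7 ± 7.90, 84.9 ± 38.0 and 61.4 ± 26.2 CPM in the same order. The 17 genes of hypoxia sensing and response, to which VEGFA belongs by regulation, had medians of 0.08, 0.02 and 0.02. HIF1A, an oxygen-regulated transcription factor, was at 376 ± 69.5 CPM in Dorset, 365 ± 69.7 in Han BB and 380 ± 56.8 in Han ++. The hypoxia target ADM was at 157 ± 75.7, 112 ± 29.1 and 78.8 ± 10.7 CPM in the same order. The glycolytic gene ENO1 was at 698 ± 346, 780 ± 349 and 762 ± 43.7 CPM. ANKRD37, with 23 to 136 reads per library, was at 2.06 ± 1.27, 5.40 ± 2.26 and 3.41 ± 1.67 CPM (Han BB against Dorset 1.41, adjusted p = 0.975 in edgeR). The 12 other angiogenic genes had medians of -0.08, 0.06 and -0.07. Of these ADAMTS1, a protease induced at ovulation, was at 292 ± 41.0 CPM in Dorset, 208 ± 51.0 in Han BB and 181 ± 46.8 in Han ++ (Han ++ against Dorset -0.69, unadjusted p = 0.0463 in edgeR). The inhibitors THBS1 and COL18A1, with the highest mean CPM of that list, had log2 fold changes between -0.54 and 0.43.

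Markers of other ovarian cells are given here beside the ANGPT2 difference, and 0 of them were called in edgeR in any comparison. In Han BB against Dorset, 8 of 8 granulosa cell genes and 4 of 4 theca cell genes had a log2 fold change below 0, with medians of -0.81 and -0.83 and 0 genes with an unadjusted p under 0.05 in edgeR. Of all tested genes, 50.6% were below 0 and 4.99% had an unadjusted p under 0.05 in this comparison. Genes of one list can move together, so the counts within a list are not separate evidence. The summed level of the theca genes was 139 to 195 CPM in Dorset and 64.8 to 119 in Han BB, and that of the granulosa genes was 530 to 783 and 337 to 534 CPM. GJA1 alone supplied 377 to 472 CPM of the granulosa sum in Dorset and 249 to 358 CPM in Han BB, so that sum mostly follows 1 gene. Of 8 smooth muscle genes 7 were below 0 (median -0.49), and 3 of them (CNN1, DES and SMTN) had an unadjusted p under 0.05. All 8 genes of ciliated epithelium were above 0 (median 1.00), as were 5 of 5 tested leukocyte genes (median 0.56), with 0 at an unadjusted p under 0.05 in either list. Of 8 luteal genes 4 were above and 4 below 0 (median 0.01), and their summed level varied widely within groups, from 378 to 1919 CPM in Dorset and from 508 to 1834 in Han BB. The summed level of 3 red cell genes was at most 4.77 CPM. For Han ++ against Dorset, beside the lower levels of ANGPT1, KDR and TEK, the granulosa, theca and smooth muscle medians were -0.09, -0.49 and -0.35, and the ciliated epithelium genes were all above 0 (median 1.27, 4 of 8 with an unadjusted p under 0.05). There, 55.9% of all tested genes were below 0 and 5.27% had an unadjusted p under 0.05. The part of these cell types in the values of the vessel genes was not tested.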

How the data were processed

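The analysis used the deposited table of raw read counts per gene, one column for each of the 9 libraries. According to the study's methods, the authors aligned reads to the sheep genome Oar_v3.1 with TopHat and kept uniquely mapped reads. The methods name a stranded, ribosomal RNA-depleted TruSeq library and the labels a TruSeq RNA Sample Prep Kit. The counting program and whether it used strand were not found in either, so reads of overlapping genes on opposite strands may not be told apart. Some widely expressed genes had almost no reads in this table (PTPN11, 53 in all, and ARNT, 29), so a low count is not read as low expression. Genes kept by filterByExpr (16871 of 27174) were scaled by TMM (factors 0.880 to 1.07) and fitted with edgeR 4.0.16 by the quasi-likelihood test, all 3 groups in 1 fit, in R 4.3.3. P-values were adjusted over all tested genes (Benjamini-Hochberg). Genes past an adjusted p of 0.05 that also changed more than 1.5-fold were called. Replicates were separate ewes. The common biological coefficient of variation was 0.472. Log2 CPM used a prior count of 0.5. SEs are the log2 fold change over the square root of F. Ratios were tested by exact permutation. The scripts were tested on simulated data. Alternatives used DESeq2 1.42.0 and limma 3.58.1, other settings and fewer libraries. The 10 genes and all lists were chosen with earlier results of these data known. From each related list, genes with an unadjusted p under 0.05 (at most 5) and the 2 with the highest mean CPM were named. VEGFB, TIE1, ANGPT4 and PROX1 were named after their values were seen.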

Additional observations from a re-analysis of the deposited data

How the results depend on the processing

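None of the 10 genes was called under any alternative, and the lowest adjusted p over all of them was 0.322 (VEGFA in limma). Counts over all genes did move. DESeq2 called 38 genes for Han BB against Dorset, 65 for Han ++ against Dorset and 2 for Han BB against Han ++. Limma called 0 genes for Han ++ against Dorset and 2 for Han BB against Han ++. With no filter on low counts the calls were 2 for Han BB against Dorset and 11 for Han ++ against Dorset, without W4 and D6 they were 2 and 22, and with a term for W4 and D6 they were 1 and 78. A fit of only the groups compared called 0 genes for Han ++ against Dorset. With single libraries left out the calls ranged from 0 to 1 for Han BB against Dorset, from 0 to 5 for Han ++ against Dorset and stayed at 0 for Han BB against Han ++. The number of the 10 genes whose Han BB and Dorset libraries did not overlap was 3 without W4 and D6, a count added after seeing the data. The causes of these shifts were not tested.

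Across the 7 alternatives that left no single library out, 4 of 210 log2 fold changes of the 10 genes changed sign, all of them close to 0. TEK in Han BB against Dorset was -0.039 in limma and -0.089 without W4 and D6, FLT1 in Han ++ against Dorset was 0.0028 with only those groups fitted, and FLT4 in that comparison was -0.066 with a term for W4 and D6. Leaving out single libraries changed the sign of 14 of the 30 fold changes, and not of any named above as having an unadjusted p under 0.05 in edgeR. For Han BB against Dorset the ranges were -0.17 to 0.65 for ANGPT1, -0.017 to 0.38 for FLT1, -0.14 to 0.50 for FLT4, -0.10 to 0.19 for TEK, -0.14 to 0.26 for CDH5 and -0.12 to 0.57 for VWF. For Han ++ against Dorset they were -0.60 to 0.23 for VEGFA, -0.10 to 0.084 for FLT1, -0.042 to 0.30 for FLT4 and -0.20 to 0.11 for CDH5. For Han BB against Han ++ they were -0.74 to 0.047 for VEGFA, -0.0075 to 0.40 for FLT1, -0.31 to 0.34 for FLT4 and -0.12 to 0.26 for CDH5.

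The log2 ratio of ANGPT2 to ANGPT1 for Han ++ against Dorset was -0.0025 without W4 and D6 and ranged from -0.26 to 0.58 with single libraries left out. Relative to the endothelial markers and without W4 and D6, FLT1 was 0.041 for Han ++ against Dorset, and FLT4 was 0.24 for Han BB against Dorset and 0.17 for Han BB against Han ++, each with the sign changed. With single libraries left out, the values on that scale for Han BB against Dorset ranged from -0.12 to 0.17 for FLT1, -0.17 to 0.28 for FLT4, -0.30 to 0.13 for TEK and -0.32 to 0.53 for ANGPT1. Between Han BB and Han ++ they ranged from -0.12 to 0.23 for FLT1 and -0.27 to 0.17 for FLT4, and for Han ++ against Dorset from -0.19 to 0.13 for FLT1, -0.10 to 0.24 for FLT4 and -0.51 to 0.11 for VEGFA.

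VEGFA (59 to 390 reads per library) and ANGPT1 (79 to 333) had the fewest reads of the 10 genes, and with 3 ewes per group and a biological coefficient of variation of 0.472 the intervals of all 10 genes were wide. No paired analysis was possible because the libraries come from different ewes, and no groups share more than 1 of the numbers in their titles.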
